A study of Mus musculus with 11 samples.

Results

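The transcripts of 36 neutrophil granulocyte genes were followed through RNA-seq libraries of endothelial cells isolated from mouse marrow by flow sorting as CD31hi EMCNhi. The genes were picked by name and grouped by the granule or stage in which neutrophils make the product. There were 4 primary granule genes, 4 secondary granule genes and 28 tertiary and late genes, out of 23464 named genes kept from 27179 rows of the count table. No expression value entered the choice of the 3 groups, but the list was drawn up with earlier results of these libraries known. All mice were BALB/c. Met libraries (3) came from marrow areas that held RFP-marked cells of the mammary carcinoma line 4T1.2, non-met libraries (6) from the marrow beside them that showed no RFP signal, and control libraries (2) from age-matched mice without tumours. The sort kept cells negative for the blood cell marker CD45 and the red cell marker TER-119, and each library was amplified from the RNA of few cells, mostly pooled over mice. By their labels the burdened libraries came from 4 pools of mice. Non-met 1 and 5 share pool 1. Met 1 shares pool 2 with non-met 2 and 6, met 2 shares pool 3 with non-met 3, and met 3 shares pool 4 with non-met 4. Libraries of 1 pool share their animals, so every p-value below measures spread between libraries and not between independent mice. The keratins *Krt8*, *Krt18* and *Krt19*, which mammary carcinoma cells express, summed to 1.42 to 90.0 CPM (counts scaled to 1000000 kept reads per library) in non-met, 9.98 to 67.6 in met and 0.835 and 1.84 in control, so non-met is used here for the lack of RFP signal only.

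Neutrophils fill their granules in sequence as they mature in the marrow. Promyelocytes load the primary granules with myeloperoxidase and serine proteases, myelocytes then make the lactoferrin and cathelicidin of the secondary granules, and later cells make gelatinase, calprotectin and the receptors used in the blood. Transcripts of the early granule proteins are lost from mature cells, so the stages mark where along this path a granulocyte RNA comes from. In bulk libraries such as these, fewer cells of a type and less RNA per cell cannot be told apart.

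The granulocyte genes made up a small share of every library, and most of it lay in the non-met libraries. Their summed level in CPM was 450.1 and 1172 in the controls, 785 to 7484 with a median of 3897 in non-met, and 352, 268 and 418 in met. This was 0.0450% and 0.117% of the kept reads in control, 0.0785% to 0.748% in non-met, and 0.0268% to 0.0418% in met. The lowest non-met library still exceeded the highest met library, while control 2 lay within the non-met range. The non-met libraries themselves split by pool. The 4 from pools 1 and 2 held 3096 to 7484 CPM, and the 2 from pools 3 and 4 held 785 and 838 CPM. The 3 met libraries came from pools 2, 3 and 4, so pool 1 had no met library to set beside it.

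**Figure D1:**
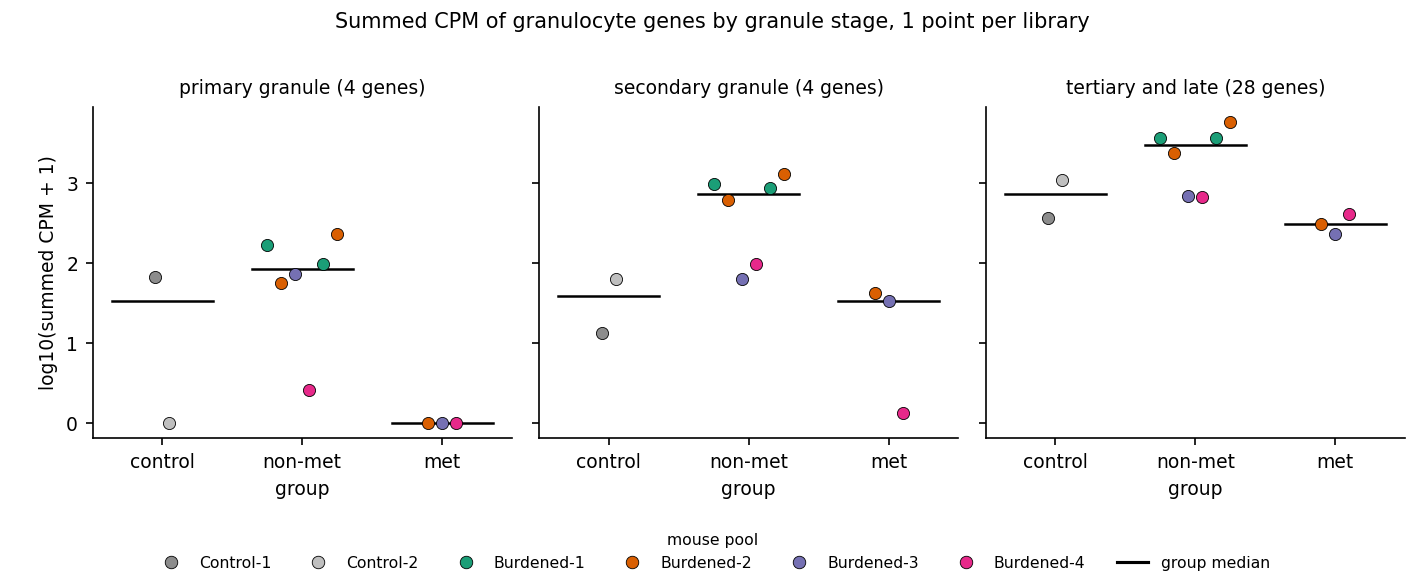
Summed CPM of the 4 primary granule, 4 secondary granule and 28 tertiary and late genes, as log10(summed CPM + 1), with 1 point per library coloured by mouse pool and a line at each group median. All 3 met libraries sit at 0 for the primary granule genes, and the non-met libraries of pools 1 and 2 are the highest for the secondary and for the tertiary and late genes.

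Detection was patchy from library to library. With more than 3 reads taken as detected, 9 to 27 of the 36 genes were found in a non-met library, 10 and 15 in the controls and 7, 8 and 10 in met. *S100a9* and *Anxa1* alone were detected in all 11 libraries. *Ctsg* and *Ms4a3* were detected in 1 library each, *Ly6g* reached no more than 1 read anywhere and *Itgb2l* had none. Libraries of the same animals differed in this as well. Non-met 1 and 5 shared 13 detected genes and differed in 16, and non-met 2 and 6 shared 17 and differed in 12. Of the 36 genes, 17 had 0 reads in all 3 met libraries, 17 in both controls and 3 (*Ctsg*, *Chil3* and *Itgb2l*) in all 6 non-met libraries. A count of 0 allows up to 3 reads, which is 0.352 to 1.22 CPM in the met libraries and up to 4.76 CPM in non-met 4, the shallowest library, and these floors cover counting error only.

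**Figure D2:**
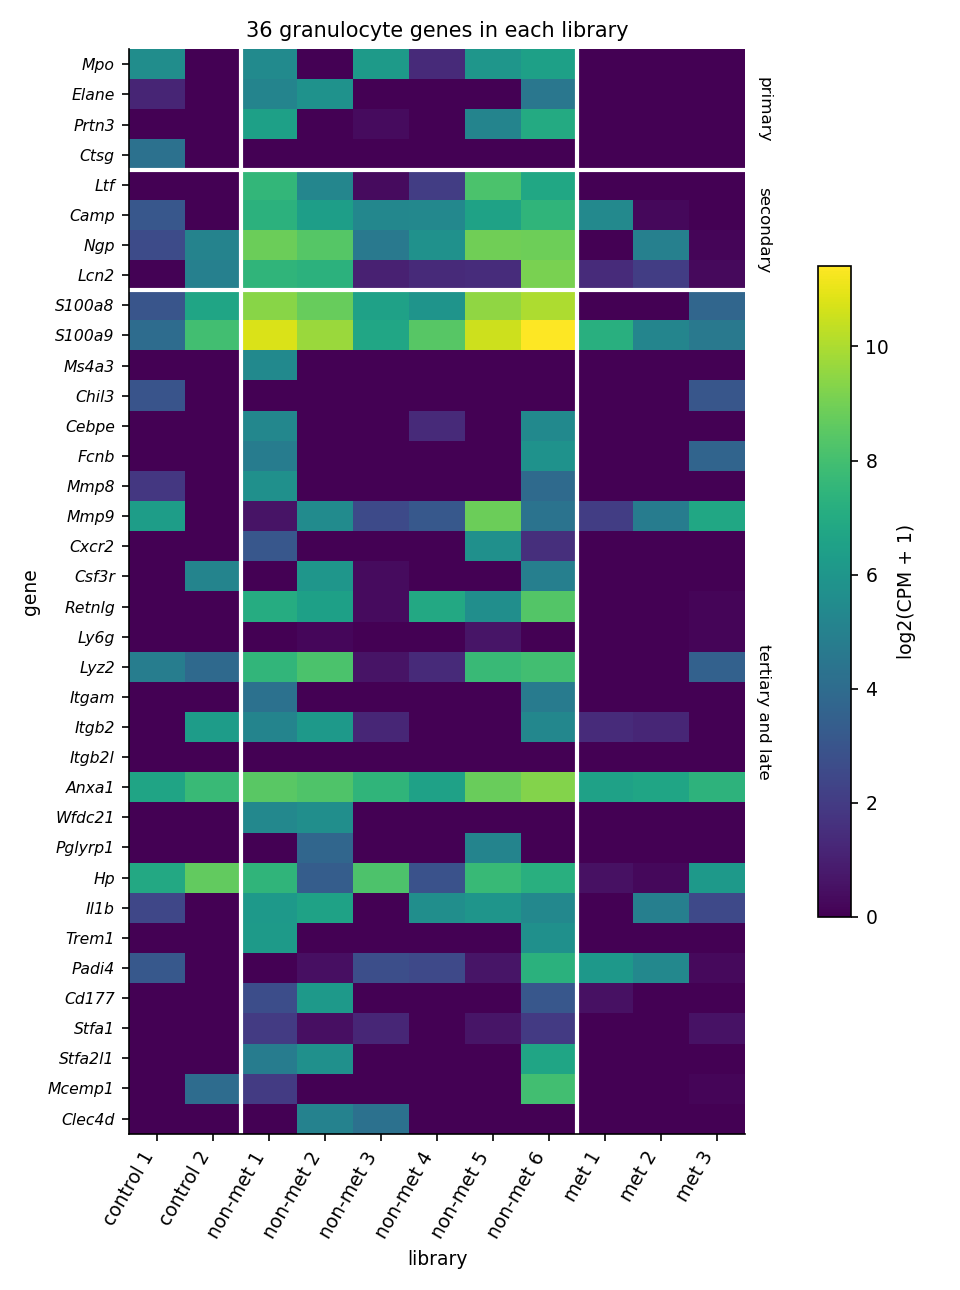
Level of each of the 36 genes in each library, as log2(CPM + 1), with white lines between the groups of libraries and the granule stages. *S100a8* and *S100a9* are the brightest rows among the non-met columns, the met columns are dark for all 4 primary granule genes, and many late genes appear in 2 or 3 non-met libraries only.

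The primary granule genes were absent from the met libraries at this depth. *Mpo* encodes myeloperoxidase, *Elane* neutrophil elastase, *Prtn3* proteinase 3 and *Ctsg* cathepsin G, and all 4 had 0 reads in met 1, 2 and 3. Their summed level was 66.2 and 0 CPM in the controls and 1.59 to 234 CPM in non-met, with a median of 85.0. *Mpo* stood at 46.6 and 0 CPM in the controls, and in non-met at 0 (lowest), 53.2 (median) and 88.0 (highest). *Elane* stood at 1.25 and 0 CPM in control and at 0, 11 and 56.2 in non-met, and *Prtn3* at 0 in both controls and at 0, 17.2 and 124 in non-met. The non-met libraries were thus split, with *Mpo* detected in 4 of 6 and *Elane* and *Prtn3* in 3 each. *Ctsg* was found only in control 1, at 18.4 CPM (352 reads), and did not pass the filter on low counts. Against the mean of the 3 met floors (3 reads in each library, 0.712 CPM), the non-met mean was at least 62.8-fold higher for *Mpo*, at least 58.0-fold for *Prtn3* and at least 26.5-fold for *Elane*. The bound for *Prtn3* was 34.7-fold without non-met 6 and that for *Elane* 16.0-fold without non-met 2. None of these differences passed the test over all genes (adjusted p = 0.506 for *Mpo*, 0.668 for *Prtn3* and 0.686 for *Elane*, voomLmFit).

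*Prtn3* and *Elane* lie 3.137 kb apart on chromosome 10, but they were not detected together throughout. Both passed 3 reads in 2 libraries, non-met 1 and 6, and one without the other in 3 (*Elane* in control 1 and non-met 2, *Prtn3* in non-met 5). The stretches before their RefSeq starts are given because this pair stands for a stage that was at 0 in met. They are from the RefSeq promoter table of GRCm38.p6, cut back to the bases before the first GENCODE exon, and run 5′ to 3′ on the strand of the gene. Capitals mark matches to GAGGAA, the core of the site of the myeloid factor PU.1, read on both strands. *Elane* is shown for chr10:79886062-79886246, plus strand, and *Prtn3* for chr10:79879417-79879613, plus strand.
Elane: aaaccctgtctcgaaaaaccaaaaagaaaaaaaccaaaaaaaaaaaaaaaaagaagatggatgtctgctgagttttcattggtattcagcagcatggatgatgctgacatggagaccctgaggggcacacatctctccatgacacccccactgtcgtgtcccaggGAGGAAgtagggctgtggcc
Prtn3: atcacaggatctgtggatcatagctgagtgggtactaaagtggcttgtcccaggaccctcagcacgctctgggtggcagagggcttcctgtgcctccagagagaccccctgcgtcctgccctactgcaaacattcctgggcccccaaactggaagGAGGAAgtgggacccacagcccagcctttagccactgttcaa

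The match begins 85 bases before the RefSeq start in *Elane* and 95 bases before it in *Prtn3*. In the 250 bases before the start, GAGGAA or its complement was present in 4 of 4 primary, 2 of 4 secondary and 15 of 24 late windows, against 23.3% of 32851 promoter windows of the same length. The C/EBP motif TTGCNNAA was read on both strands as well and was present in 0 of 4 primary, 3 of 4 secondary and 7 of 24 late windows, against 9.56% of all. Windows were found for 31 of the 36 genes, with 2 for *Ly6g*, and not for *Wfdc21*, *Cebpe*, *Hp*, *Itgb2* and *Mmp9*. In 20 of the 32 windows some bases lie in an exon that GENCODE places before the RefSeq start. A match describes the letters of the window and not binding.

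The secondary granule genes were present in every non-met library and low in met. *Ltf* encodes lactoferrin, which binds iron, *Camp* the antimicrobial cathelicidin, *Ngp* neutrophilic granule protein and *Lcn2* lipocalin 2, which captures bacterial iron carriers. Their summed level was 12.6 and 63.2 CPM in control, 62.6 to 1314 CPM with a median of 744 in non-met, and 41.9, 33.3 and 0.352 CPM in met. Non-met 3, the lowest of its group, lay just below control 2, and every met library lay below every non-met library. All 4 genes were detected in non-met 1, 2 and 6, and at most 2 in any met or control library.

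*Ltf* had no read in any control or met library, and in non-met it stood at 0.261 (lowest), 73.8 (median) and 285 (highest) CPM. The 4 libraries of pools 1 and 2 held 36.6 to 285 CPM, and non-met 3 and 4 held 1 and 2 reads. The non-met mean was at least 146-fold above the mean floor in met and at least 270-fold above that in control (adjusted p = 0.271 and 0.110, voomLmFit), and 95.2-fold and 176-fold without non-met 5. *Camp* was found in all 6 non-met libraries, at 38.1, 88.7 and 175 CPM, against 7.46 and 0 in control and 40.3, 0.188 and 0 in met. Met 1 held more *Camp* than non-met 3 and 4, so the groups overlapped (log2 difference -6.39 ± 2.04 SE, adjusted p = 0.344). That difference was -9.26 without met 1, -3.84 without met 3 and -2.76 by the quasi-likelihood test, beside group means of 13.5 CPM in met and 98.3 in non-met. *Camp* in non-met was above both controls in every library (8.87 ± 2.20, adjusted p = 0.0611, and 3.7 without control 2). *Ngp* was also in all 6, at 23.2, 401 and 493.2 CPM, against 5.11 and 33.0 in control and 0, 29.9 and 0.117 in met. Met 2 lay above non-met 3, the lowest non-met library. The fitted differences were -7.34 ± 2.38 for met against non-met (adjusted p = 0.357) and 4.17 ± 1.73 for non-met against control (adjusted p = 0.226). *Lcn2* was uneven, at 1.04, 79.7 and 548 CPM in non-met, 0.0522 and 30.3 in control and 1.63, 3.20 and 0.235 in met. It was high in non-met 1, 2 and 6 and at 4 reads or fewer in non-met 3, 4 and 5 (met against non-met -4.17 ± 2.63, adjusted p = 0.751).

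*Camp*, *Ngp* and *Ltf* lie in this order within 1.2 Mb of chromosome 9, with gaps of 570 kb and 596 kb. *Camp* and *Ngp* were both detected in 7 libraries and one without the other in 3, and *Ngp* and *Ltf* in 4 and 5. *Ltf* and *Ngp* are shown because each has a C/EBP match outside annotated exons, and C/EBPε is known to drive this stage. Capitals mark the C/EBP motif on either strand and, in *Ltf*, the PU.1 motif as it reads on the opposite strand. *Ltf* is shown for chr9:111019042-111019270, plus strand, and *Ngp* for chr9:110419558-110419746, plus strand.
Ltf: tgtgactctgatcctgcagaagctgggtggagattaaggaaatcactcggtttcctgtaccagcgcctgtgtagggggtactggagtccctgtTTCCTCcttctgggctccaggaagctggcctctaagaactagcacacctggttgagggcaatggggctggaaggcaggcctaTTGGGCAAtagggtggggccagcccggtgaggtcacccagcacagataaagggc
Ngp: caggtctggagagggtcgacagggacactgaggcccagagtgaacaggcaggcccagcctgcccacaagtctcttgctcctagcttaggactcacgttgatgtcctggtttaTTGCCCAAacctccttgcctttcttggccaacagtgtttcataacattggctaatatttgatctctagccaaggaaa

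Calprotectin gave the 2 highest levels per length among the 36 genes in non-met. *S100a8* and *S100a9* encode the 2 subunits of this calcium-binding dimer, the most abundant cytosolic protein of neutrophils, and together they took 23.6% to 51.7% of the granulocyte reads in non-met, 5.02% and 30.0% in control and 41.5%, 13.1% and 8.57% in met. *S100a8* stood at 6.99 and 104 CPM in control, at 58.7 (lowest), 546 (median) and 1025 (highest) in non-met, and at 0, 0 and 12.4 in met. Every non-met library lay above every met library, while control 2 overlapped with non-met 3 and 4. *S100a9* stood at 15.6 and 247 CPM in control, at 105, 1149 and 2718 in non-met, and at 146, 35.0 and 23.4 in met. Here met 1 lay above non-met 3, so the groups overlapped.

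In CPM per kilobase of exon length (RPKM), the non-met medians were 2355 for *S100a9* and 1392 for *S100a8*, followed by *Ngp* at 345, *Anxa1* at 237 and *Lyz2* at 186. The ranges of *S100a9* (216 to 5569) and *S100a8* (150 to 2614) overlapped with one another and with that of *Ngp* (20.0 to 425). The level of *S100a8* per *S100a9* was 0.210 to 1.09 in non-met, 0.558 and 0.524 in control and 0.663 in met 3. In met 1 and 2 it was 0, where *S100a9* had 359 and 186 reads and *S100a8* none. This is the only pair of libraries in which one subunit was found without the other.

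**Figure D3:**
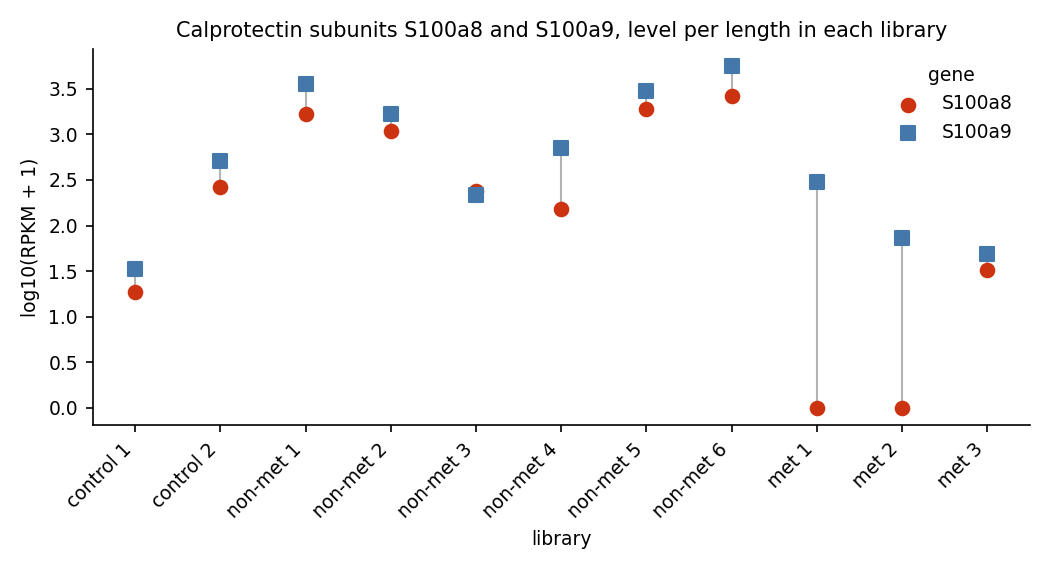
Level per length of *S100a8* (circles) and *S100a9* (squares) in each library, as log10(RPKM + 1), joined by a line within a library. *S100a8* is at 0 in met 1 and 2, where *S100a9* is at 299 and 71.7 RPKM, and in the other 9 libraries both were found, with *S100a8* at 0.210 to 1.09 of *S100a9*.

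The fitted difference of *S100a8* between met and non-met was -9.78 ± 2.33 on the log2 scale (adjusted p = 0.0675, voomLmFit), beside group means of 4.15 and 500.4 CPM. That of *S100a9* was -4.61 ± 2.18 (adjusted p = 0.685). Neither passed the threshold of 0.05. The edgeR quasi-likelihood test passed both, with smaller differences of -6.84 and -4.04 and an adjusted p of 7.29e-05 each, and over 20 alternative settings the adjusted p ranged from 7.29e-05 to 1.00 for each gene. For non-met against control the differences were 4.14 ± 1.11 for *S100a8* (adjusted p = 0.0744) and 4.41 ± 1.10 for *S100a9* (adjusted p = 0.0611), which without control 1 were 2.15 and 2.07. The 2 genes lie 22.595 kb apart on chromosome 3, on opposite strands. Their upstream stretches are shown as those of the leading genes, with the same 2 motifs in capitals, for chr3:90668821-90668977, plus strand, and for chr3:90695722-90695971, minus strand.
S100a8: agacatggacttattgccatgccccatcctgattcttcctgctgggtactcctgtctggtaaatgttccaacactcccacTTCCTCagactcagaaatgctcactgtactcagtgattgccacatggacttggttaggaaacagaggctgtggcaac
S100a9: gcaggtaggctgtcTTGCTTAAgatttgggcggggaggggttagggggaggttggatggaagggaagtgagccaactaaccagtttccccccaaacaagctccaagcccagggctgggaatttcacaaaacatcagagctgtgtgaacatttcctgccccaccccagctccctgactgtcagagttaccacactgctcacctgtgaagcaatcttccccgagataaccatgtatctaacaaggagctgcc

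Of the late genes, the 4 that myelocytes and their precursors are known to express, *Cebpe*, *Fcnb*, *Ms4a3* and *Chil3*, were seen in few libraries. *Cebpe*, the factor that drives secondary granule genes, had 38.2 CPM in non-met 1 and 42.1 in non-met 6, and at most 1 read elsewhere. *Fcnb*, a ficolin that recognises microbial sugars, had 27.1 and 54.5 CPM in the same 2 libraries and 12 in met 3. *Ms4a3*, a membrane protein of granulocyte and monocyte precursors, was found in non-met 1 only (236 reads). *Chil3*, a chitinase-like protein, was found in control 1 and met 3 and in no non-met library. Its counts may be shared with near-identical copies such as *Chil4*, and the same holds for *Lyz2* and *Lyz1* and for *Stfa1* and *Stfa2l1*, which belong to a cluster of stefin A genes. Non-met 1 and 6 were therefore the libraries in which granule genes of all stages were seen together with *Cebpe*.

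The gelatinase granule and secreted proteins differed among themselves. *Retnlg*, a resistin-like protein of mature neutrophils, had 0 CPM in both controls, 0.261 (lowest), 102 (median) and 331 (highest) in non-met and 0, 0 and 0.117 in met. The other 5 non-met libraries held 48.2 CPM or more, while non-met 3 held 1 read, as did met 3, so at that end the groups were set apart by library depth alone (adjusted p = 0.200, voomLmFit). *Lyz2*, lysozyme, stood at 27.4 and 14.1 CPM in control, at 0.522, 197 and 288 in non-met and at 0, 0 and 10.7 in met. It was high in the 4 libraries of pools 1 and 2 and at 2 reads or fewer in non-met 3 and 4 (met against non-met -6.56 ± 2.43, adjusted p = 0.502).

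*Mmp9*, gelatinase B, was found in every group, at 81.6 and 0 CPM in control, at 0.531, 13.5 and 454 in non-met and at 3.25, 26.5 and 110 in met. Its groups overlapped, and its fitted difference of 1.19 ± 1.95 (adjusted p = 0.926) has the sign opposite to the group means of 46.6 CPM in met and 88.5 in non-met, the fit being made on weighted log values. *Mmp8*, neutrophil collagenase, was seen in non-met 1 and 6 and control 1 only. *Il1b*, the cytokine interleukin 1 beta, stood at 4.44 and 0 CPM in control, at 0, 55.0 and 94.7 in non-met and at 0, 29.7 and 4.70 in met. It was detected in 5 of 6 non-met libraries (met against non-met -2.66 ± 2.48, adjusted p = 0.828), and the difference was -0.93 without met 1 and -5.48 without met 2. *Wfdc21* and *Pglyrp1*, a protease inhibitor-like protein and a peptidoglycan-binding protein, were found in 2 non-met libraries each.

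*Anxa1* and *Hp* took a larger share of the granulocyte reads in control than in 5 of the 6 non-met libraries. *Anxa1*, annexin A1, which dampens neutrophil adhesion and is made by many cell types, was found in all libraries at 102 and 212 CPM in control, 92.0, 330.4 and 635 in non-met and 91.9, 103 and 167 in met. *Hp*, haptoglobin, stood at 116 and 403 CPM in control, at 6.34, 162 and 299 in non-met and at 0.407, 0.188 and 69.2 in met. The highest *Hp* was in control 2, and met 1 and 2 held 1 read each. The 2 genes took 48.5% and 52.5% of the granulocyte reads in control, 26.2% to 56.4% in met and 10.1% to 13.9% in 5 of the non-met libraries, with 56.4% in non-met 3. The differences between met and non-met were -1.28 ± 0.65 for *Anxa1* (adjusted p = 0.722) and -5.17 ± 2.73 for *Hp* (adjusted p = 0.734). For *Hp* the quasi-likelihood test gave -2.68, and the group means were 23.3 CPM in met and 140.8 in non-met.

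Receptors and adhesion molecules of neutrophils were nearly absent outside non-met and control 2. *Csf3r*, the receptor for G-CSF, had 34.4 CPM in control 2, 62.8 in non-met 2 and 29.7 in non-met 6, and 1 read or none in the other 8 libraries. *Cxcr2*, the receptor that draws neutrophils out of the marrow, had 7.44, 51.6 and 1.91 CPM in non-met 1, 5 and 6 and 0 elsewhere. The non-met means were at least 21.7-fold (*Csf3r*) and at least 14.3-fold (*Cxcr2*) above the mean floor in met, with adjusted p of 0.751 for both (voomLmFit). The bound was 8.40-fold for *Csf3r* without non-met 2 and 2.63-fold for *Cxcr2* without non-met 5. *Itgb2*, the beta-2 integrin chain, stood at 0 and 78.2 CPM in control, at 0, 17.9 and 67.9 in non-met and at 1.63, 1.32 and 0 in met (-2.86 ± 2.73, adjusted p = 0.835). *Itgam*, its CD11b partner, and *Trem1*, an activating receptor, were found in non-met 1 and 6 only. *Clec4d*, a C-type lectin, was found in non-met 2 and 3, *Cd177* in non-met 1, 2 and 6, and *Mcemp1* in control 2 and non-met 1 and 6, with 248 CPM in non-met 6. *Ly6g*, whose product is the usual surface marker of mouse neutrophils, was at 1 read or none in all 11 libraries.

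Among the remaining late genes, *Padi4*, the enzyme that citrullinates histones in neutrophil traps, stood at 7.78 and 0 CPM in control, at 0, 2.67 and 153 in non-met and at 66.3, 39.5 and 0.235 in met. It was, with *Chil3* and *Mmp9*, one of the 3 tested genes with a fitted value above 0 in met against non-met (0.61 ± 2.36, adjusted p = 0.975), and its value was -0.15 without met 1 and -0.16 without met 2. *Stfa2l1* was seen in non-met 1, 2 and 6 at 26.4, 52.7 and 103 CPM, and *Stfa1* at 17 reads or fewer in any library.

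The comparison of met with non-met asks whether the endothelial sort from infiltrated areas carried other granulocyte RNA than that from areas without RFP signal in burdened mice. The main fit is not paired by pool, and pool 1 has no met library. Of the 36 genes, 32 passed the filter on low counts, which *Ctsg*, *Ms4a3*, *Ly6g* and *Itgb2l* did not, and 0 of 32 passed the test of voomLmFit at an adjusted p under 0.05, where 0.418% of all 11949 genes did. At an unadjusted p under 0.05 there were 11 of 32, all lower in met, where 2.21% of all genes were lower at that level. These were *Mpo*, *Elane*, *Prtn3*, *Ltf*, *Camp*, *Ngp*, *S100a8*, *S100a9*, *Retnlg*, *Lyz2* and *Stfa2l1*, which is every tested gene of the primary granule and 3 of 4 of the secondary granule. Of these, *Mpo*, *Elane*, *Prtn3*, *Ltf*, *Retnlg* and *Stfa2l1* were at 3 reads or fewer in every met library. They entered the test through the other groups, so this count and its spread over the stages are a description only. Met lay wholly below non-met for 3 of 32 (*Ltf*, *S100a8* and *Retnlg*), against 0.444% of all genes. For *Ltf* and *Retnlg* the lowest non-met library held 1 read, against at most 1 in met, so *S100a8* alone was set apart beyond the floor of 3 reads. Other tools made other counts. The edgeR quasi-likelihood test passed 4 (*S100a8*, *S100a9*, *Ngp* and *Retnlg*, against 0.117% of all genes lower), limma-trend 1 (*S100a8*, against 0.0167%), and DESeq2 15, all lower, against 2.55%. Among the DESeq2 genes, *Clec4d*, *Csf3r*, *Ltf*, *Mmp8*, *Mpo*, *Prtn3*, *Stfa2l1*, *Trem1* and *Wfdc21* had no read in met, and *Retnlg* had 1. They entered the test through the other groups, so the DESeq2 count is a description only.

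Fitted values were lower in met for 29 of 32 genes, with a median of -4.03, against 48.2% of all genes and a median of 0.08. With genes at the floor of a group set to their bound the median was -4.32. By stage the medians were -5.45 over 3 primary, -6.87 over 4 secondary and -3.65 over 25 late genes. Because 18 of the 32 genes were at the floor in met or non-met and entered the fit through the group where they were high, these counts and medians describe the libraries and were not tested.

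**Figure D4:**
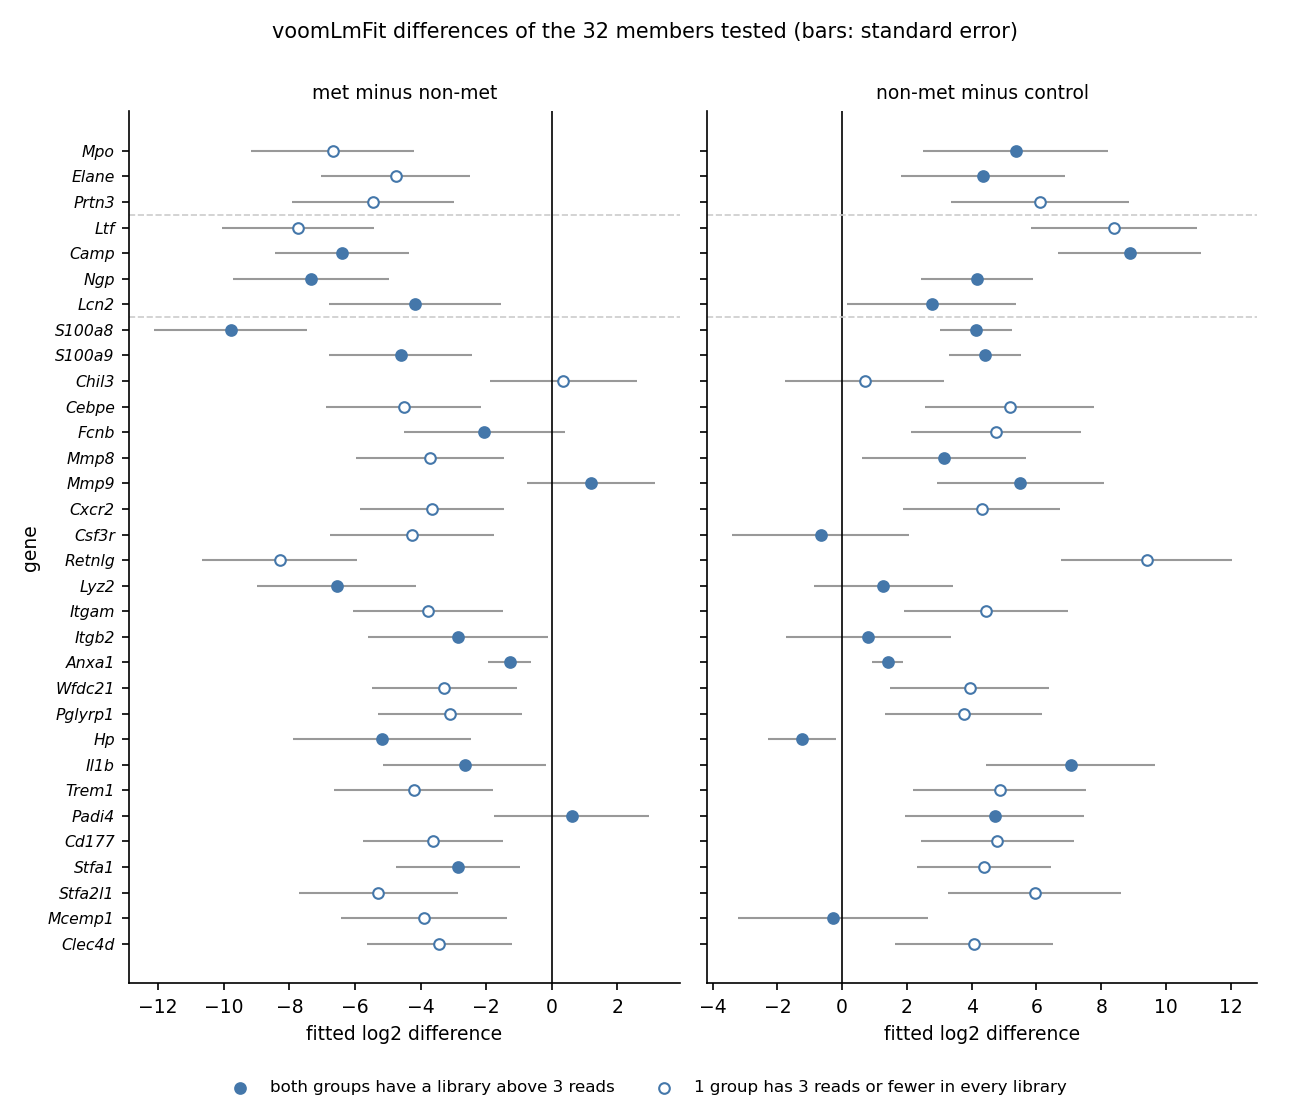
Fitted log2 difference of the 32 tested genes for met minus non-met (left) and non-met minus control (right), with standard errors. Open points mark genes with 3 reads or fewer in every library of 1 group, whose fitted value is not a fold. On the left 29 of 32 points lie below 0, and on the right 29 of 32 lie above it, most with errors of more than 2 log2 units.

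Set beside the non-met libraries of the same animals, met was lower in all 3 pools for 5 of the 36 genes, *Ltf*, *Camp*, *S100a8*, *S100a9* and *Retnlg*, where 4.88% of all genes tested were, and higher in all 3 for none. For *Ltf* and *Retnlg* in pool 3 this is 1 read against 0, and for *Ltf* in pool 4 it is 2 reads against 0, which the depth cannot tell from 0. The summed level of the 36 genes in non-met over that in met was 8.80 and 21.3 in pool 2, 3.12 in pool 3 and 1.88 in pool 4. Calprotectin kept the order in each pool, with ratios of 8.58 and 25.6, 5.65 and 11.3. The secondary granule genes gave 14.6 and 31.4 in pool 2, 1.88 in pool 3 and 279 in pool 4, where met 3 held 3 reads of them. The late genes other than *S100a8*, *S100a9*, *Anxa1* and *Hp* gave 12.1 and 19.7 in pool 2 and 1.24 in pool 4, but 0.333 in pool 3, where *Padi4*, *Il1b* and *Mmp9* were higher in met 2 than in non-met 3. A fit with the pool as a block gave log2 differences of -7.88 for *S100a8* and -2.88 for *S100a9*, with an adjusted p of 1.00 for both (voomLmFit).

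**Figure D5:**
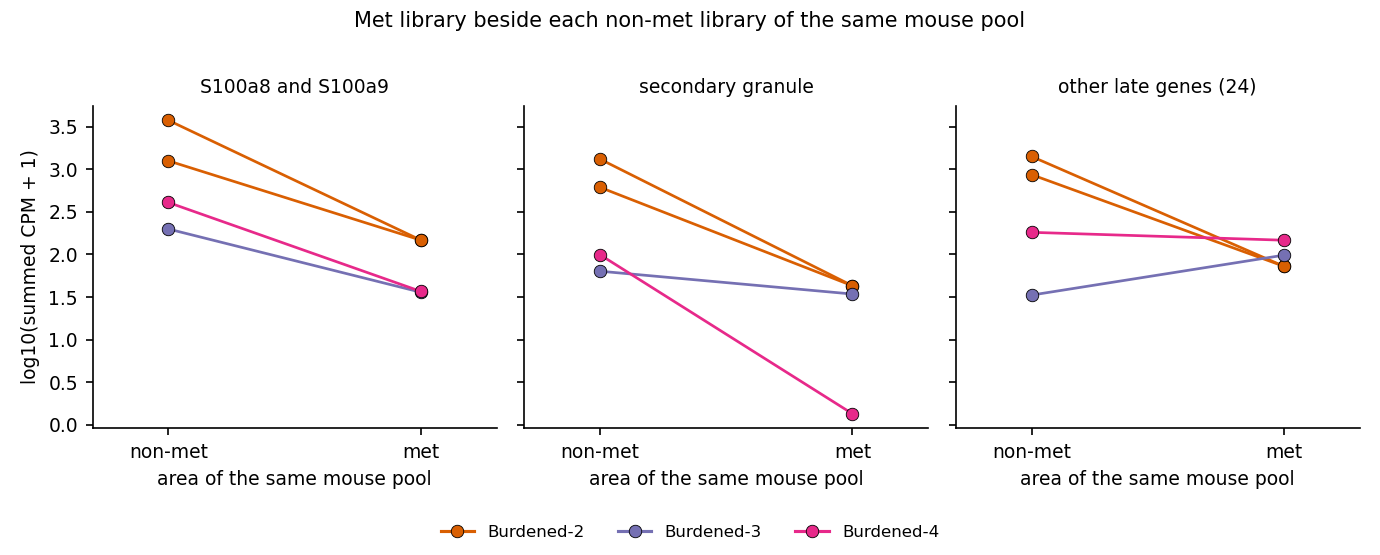
Summed CPM, as log10(summed CPM + 1), in the met library and in each non-met library of the same mouse pool, for calprotectin, the 4 secondary granule genes and the 24 late genes left when *S100a8*, *S100a9*, *Anxa1* and *Hp* are set aside. Lines go down from non-met to met in all 3 pools for the first 2 groups and up in pool 3 for the third.

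For non-met against control, which sets marrow of burdened mice without RFP signal beside healthy marrow, 0 of 32 genes passed voomLmFit, where 0.636% of all genes did. At an unadjusted p under 0.05 there were 12, all higher in non-met, where 5.32% of all genes were higher. They were *Prtn3*, *Ltf*, *Camp*, *Ngp*, *S100a8*, *S100a9*, *Anxa1*, *Il1b*, *Mmp9*, *Retnlg*, *Stfa1* and *Stfa2l1*. Of these, *Prtn3*, *Ltf*, *Retnlg*, *Stfa1* and *Stfa2l1* had no read in control and entered the test through burdened libraries. Both controls lay below all 6 non-met libraries for *Ltf*, *Camp* and *Retnlg*, 3 of 32, against 0.937% of all genes, but for *Ltf* and *Retnlg* the lowest non-met library held 1 read against 0, so *Camp* alone was set apart beyond the floor of 3 reads. The quasi-likelihood test passed 1 gene (*S100a9*, against 0.0921% higher), DESeq2 7 (against 1.99%) and limma-trend 0 (against 0.067%). All 7 genes passed by DESeq2 had 0 reads in both controls and entered the test through non-met. The median fitted value over the 32 was 4.37, against -0.33 over all genes, and 4.43 with genes at the floor at their bound. As 15 of the 32 genes were at the floor in one group, and most of these were tested because non-met was high, this median is a description only. Only *Csf3r*, *Hp* and *Mcemp1* had fitted values below 0, and *Mcemp1* was at 0.10 with RLE scaling. The fitted sign of *Mcemp1* is opposite to its group means of 41.8 CPM in non-met and 7.68 in control, and that of *Chil3* (0.69) to its 0 reads in non-met and 3.39 CPM in control. The 2 controls differed from each other, with 892 reads of *Mpo* in control 1 and 0 in control 2. Without control 2 the fitted value was -1.90 for *Mpo* (5.35 with it) and -2.46 for *Mmp9* (5.50 with it).

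For met against control, 0 of 32 passed voomLmFit, where 1.2% of all genes did, and 0 passed the quasi-likelihood test (0.0837% of all genes) or limma-trend (0.0753%). DESeq2 passed 3 (*Csf3r* and *Mmp8* lower, *Fcnb* higher), against 2.03% of all genes. Each of them had reads in a single library of these groups. These were control 2 for *Csf3r* (168 reads), control 1 for *Mmp8* (49) and met 3 for *Fcnb* (102). At an unadjusted p under 0.05 there were 3, *Hp* and *S100a8* lower and *Mmp9* higher in met, against 14.1% of all genes. *S100a8* had a fitted difference of -5.64 ± 2.52 (adjusted p = 0.299) and *Hp* of -6.40 ± 2.55 (adjusted p = 0.218). The value for *Mmp9*, 6.70 ± 2.74 (adjusted p = 0.234), stands beside group means of 46.6 CPM in met and 40.8 in control, where control 2 had 0 reads. Without control 2 that value was -1.30. Met lay wholly below both controls for *Hp* and *Lyz2*, 2 of 32, against 14.2% of all genes. Genes at the floor in both groups numbered 14 of 32, and no fold is given for them. Both comparisons with control share the same 2 libraries, and met and non-met enter 2 comparisons each.

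Of 35 further neutrophil genes, 23 were tested and 0 passed in any comparison by voomLmFit. Their median fitted value was -2.78 where met was set against non-met, and 2.94 where non-met was set against healthy marrow (-2.21 and 2.57 with the 11 and 10 genes at the floor of a group set to their bound), and their summed level was 487 and 569 CPM in control, 244 to 1372 in non-met and 424 to 456 in met. Among them *Ifitm6*, an interferon-induced membrane protein, was seen in non-met 1, 2, 5 and 6 and at 1 read or none in the other 7 libraries, while *Cebpd*, a stress-induced C/EBP factor, was found in all 11. *Ifitm6* was picked after its values were seen. The G-CSF ligand gene *Csf3* had 1 read or none in every library. The G-CSF and attractant list summed to 5390 and 12787 CPM in control, 1805 to 4100 in non-met and 1117 to 2887 in met. *Cxcl12*, the chemokine that holds neutrophils in the marrow, was lower in met (-4.07 ± 0.35, adjusted p = 2.27e-08) and in non-met (-3.12 ± 0.22, adjusted p = 1.69e-09) than in control by voomLmFit.

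Markers of other blood cells and of the sort are given beside these results. *Ptprc*, which encodes CD45, had 255 reads in control 1, 205 in met 2 and 0 in the other 9 libraries, so the 4 libraries with the most granulocyte RNA had none. Monocyte and macrophage markers summed to 1187 and 1684 CPM in control, 560 to 1203 in non-met and 327 to 1148 in met, most of it *Mrc1*, which sinusoidal endothelium also expresses, and 6 of the 15 (*Ccr2*, *C1qa*, *C1qb*, *C1qc*, *Ms4a7* and *Fcgr1*) had 0 reads throughout. *Csf1r*, *Adgre1* and *Cd68* had most reads in non-met 2, at 479, 431 and 405. Their next highest counts were 183 (met 2), 53 (non-met 5) and 153 (met 3). *Ly6c2* was found in every library and *Cd14* in all but met 1. Of 14 eosinophil, basophil and mast cell markers 7 had 0 reads throughout, and the list summed to 0 to 257 CPM in non-met and 0 to 105 in met, led by *Ccr3*. Non-met 2 alone had 5 of them detected (*Prg2*, *Epx*, *Ccr3*, *Fcer1a* and *Ms4a2*). B cell markers summed to 31.8 and 61.8 CPM in control, 1.74 to 145 in non-met and 170 to 303 in met. Of that list *Cd74*, the invariant chain of MHC class II and not particular to B cells, was higher in met than in non-met by voomLmFit (5.62, adjusted p = 0.0377), and in met 2 it was the only B cell list gene with a read. T and NK cell markers summed to 0 in control, 0 to 74.3 in non-met and 0 to 46.8 in met, and megakaryocyte markers to 0 and 36.2, 0 to 62.2 and 42.3 to 114. Of the last list *Itga2b*, the platelet integrin chain, was higher in met than in control by voomLmFit (adjusted p = 0.0406), with 227, 158 and 267 reads in met and 0 in both controls, and it had 185 reads in non-met 2. Markers of mammary tumour epithelium summed to 1.10 and 22.5 CPM in control, 1.42 to 157 in non-met and 12.1 to 74.9 in met. Endothelial markers summed to 11421 and 15749 CPM in control, 11710 to 15922 in non-met and 14737 to 19165 in met, with 13 or 14 of 14 detected in each library. Of these, 4 were higher in met than in non-met by voomLmFit, *Pecam1* (0.89, adjusted p = 0.000455), *Tie1* (0.96, adjusted p = 0.000736), *Eng* (0.77, adjusted p = 0.0118) and *Cdh5* (0.56, adjusted p = 0.0159), where 29 of 32 granulocyte genes had lower fitted values. Against control, *Pecam1*, *Emcn*, *Tie1* and *Cdh5* were higher and *Kdr* lower in met, and *Eng* was lower in non-met, by the same test. The part of other blood cells, of tumour cells, or of RNA from cells outside the gate, in the granulocyte values was not tested.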

How the data were processed

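RNA of sorted CD31hi EMCNhi endothelial cells was amplified with the SMART-Seq v4 kit, and the deposited values are raw counts per gene, which the authors made with featureCounts on mm10 per the labels; whether counting used the strand is not given in the sources used here. Of 27179 rows, 25275 took a RefSeq name and 18 a GENCODE name, and 1886 rows with no name, 35 rRNA rows and 1794 predicted genes were left out (1.94% to 15.7% of a library's counts). CPM are kept counts scaled to 1000000 per library, and total counts were 733342 to 7683451 in non-met, 2547520 to 8771860 in met and 5029771 and 19539761 in control.

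The 36 genes and all other lists were chosen with earlier results of these data known. Genes passing filterByExpr (minimum count 10, total 15) were TMM-scaled and fitted over all 11 libraries with voomLmFit and sample weights (edgeR 4.0.16, limma 3.58.1, R 4.3.3), with Benjamini-Hochberg adjustment over all genes and a threshold of 0.05. Levels were given for each control and met library and as lowest, median and highest of non-met for the primary and secondary granule genes, *S100a8*, *S100a9*, any other gene that passed voomLmFit or had over 3 reads in at least 6 libraries, *Csf3r* and *Cxcr2*, and the rest by where they were found. Genes named beyond this were chosen after their values were seen. Alternatives were DESeq2 1.42.0, edgeR's quasi-likelihood test, limma-trend (prior count 2), RLE scaling, no filter, all rows kept, a block for the mouse pool, pool sums and leaving out each library; one more, the 7 burdened libraries with *Krt8*, *Krt18* and *Krt19* above 5 CPM in sum, was added after the data were seen. The scripts were tested on simulated data. Marker lists of other cell types were summed as CPM. Red cell markers are not reported here.

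Libraries of 1 pool share animals by their labels. Deviations from the group means correlated between met and non-met libraries of a pool at Spearman's rho of -0.014 and 0.018 (pool 2), -0.020 (pool 3) and 0.022 (pool 4), across genes. Promoter sequences came from RefSeq (GRCm38.p6) and exons from GENCODE.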

Additional observations from a re-analysis of the deposited data

Results flagged for a closer look

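Among the 21 values checked for a library standing apart from the other non-met libraries on the log2 scale, 2 stood out by Dixon's test, of which chance gives about 1 in 20. *Il1b* was at 0.0 CPM in non-met 3 while the other 5 non-met libraries held 39.2 to 94.7 CPM. The summed primary granule level was 1.59 CPM in non-met 4, from 1 read of *Mpo*, while the other 5 held 56.2 to 234 CPM. Non-met 4 is the shallowest library, with a floor of 4.76 CPM for 3 reads. The part of depth in these values was not tested.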

How the results depend on the processing

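For met against non-met, the number of the 36 genes past the threshold moved from 0 to 4 (edgeR quasi-likelihood), 15 (DESeq2), 1 (limma-trend) and 3 (no low-count filter: *Ltf*, *Retnlg*, *S100a8*), and ranged from 0 to 2 when each library was left out: *S100a8* without control 1, without control 2 or without non-met 3, and *Retnlg* without non-met 3. Lower fitted values, 29 of 32, became 18 of 20 with the mouse pool as a block and 11 of 12 in the 7 burdened libraries above 5 CPM of keratins; these fits use fewer libraries, fewer genes pass the filter, and 0 passed the test in either. The block, the paired analysis of these animals, gave an adjusted p of 1.00 for every gene named here that it fitted, so nothing about stability can be read from it. For met against control the count was 3 by DESeq2 and 0 to 1 over left-out libraries (*Mpo* without control 2). For non-met against control it was 1 (quasi-likelihood), 7 (DESeq2), 3 (no filter: *Camp*, *Ltf*, *Retnlg*), 1 (pool sums) and 0 to 3 over left-out libraries: *S100a9* without non-met 1, 3 or 6, *Retnlg* and *S100a8* without non-met 3, and *Camp* without met 1.

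Over all 32 tested genes and all alternatives, the sign of the fitted value turned at least once for 3 genes in met against non-met (*Mmp9*, *Padi4* and *Chil3*), 8 in non-met against control and 23 in met against control, none of them past the threshold. Of the 23, *Cebpe*, *Clec4d*, *Cxcr2*, *Itgam*, *Ltf*, *Pglyrp1*, *Prtn3*, *Stfa2l1*, *Trem1* and *Wfdc21* had no read in met or control. Their turns were limma-trend values at 0 but for rounding, and mark no change of direction. Among the genes followed in full, the other turns included these. *Mmp9*, met against non-met, was -0.85 by quasi-likelihood and -1.15 by DESeq2, and -0.79 to 2.12 over left-out libraries. Met against control, *Anxa1* was -0.19, -0.32 and -0.15 by quasi-likelihood, DESeq2 and limma-trend and -0.48 to 0.46 over left-out libraries, *S100a9* was 0.041 with RLE scaling and -2.52 to 1.36, and *Camp* was -2.40 to 4.95. Without control 2 this comparison also turned for *Mmp9* (-1.30), *Lcn2* (4.34), *Itgb2* (4.99), *Csf3r* (2.17) and *Il1b* (-0.21). *Mpo* and *Elane* turned in it as well. Non-met against control turned for *Csf3r*, *Itgb2*, *Mmp9* and *Mpo*. The cause was not tested. RLE scaling moved the median of all genes by -0.17 for met against non-met, and 29 genes were still lower. Fitted differences between met and non-met also moved in size, over left-out libraries from -10.11 to -6.11 for *Ngp*, -5.22 to -2.49 for *Lcn2*, -6.92 to -4.28 for *Hp* and -3.91 to -1.47 for *Itgb2*, and by quasi-likelihood to -4.90, -6.37, -2.68 and -4.55. Few cells per library and 2 controls limit what these libraries can show.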
